A study of Mus musculus with 9 samples.

Results

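The 10 integrin genes described here mark stages or homing behaviour of natural killer (NK) cells. They are Itgam, Itgax, Itgal, Itgb2, Itga1, Itga2, Itga4, Itgb1, Itgb7 and Itgav. Every probe set whose platform annotation gives 1 of these symbols and no other was taken, which gave 25 probe sets of 45101 on the array for these 10 of 18193 genes with a probe set of their own. Of the 25, 20 passed the filter on dim signal and were tested, and the other 5 (3 of Itgb1 and 2 of Itgav) were too dim for a test. Chromosomes and neighbouring genes come from the mouse assembly GRCm38.p6.

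Integrins are receptors for other cells and for the extracellular matrix, each made of 1 alpha and 1 beta chain that reach the cell surface as a pair. The beta 2 chain pairs with the alpha chains CD11a, CD11b and CD11c of leukocytes, the beta 1 chain with a wide set of alpha chains that bind matrix, and the beta 7 chain with alpha 4 for entry into gut tissue. In mice, NK cells gain CD11b late in their development, whereas CD49b is an NK cell marker and CD49a is known from tissue-resident innate lymphocytes.

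NK cells had been sorted by flow cytometry from spleens of IL15tg mice, called mature in the submitters' design text, and from spleens and bone marrow of NKDxIL15tg mice, called immature there. Each of these 3 groups had 3 arrays of separate biological replicates. IL-15, the cytokine on which NK cells depend, is expressed from a transgene in all 3 groups, and NKDxIL15tg mice carry the NKD transgene as well, from a line short of mature NK cells whose transgene is reported to lie at Atf2. The age and sex of the mice, the number of mice per sample, the antibodies and the purity of the sort are not given in the sources used here, so it is not known whether an integrin was part of the gate. The spleen comparison holds maturity and NKD genotype together, and these cannot be told apart. In RNA from sorted populations, fewer cells that express a gene and less RNA per cell cannot be told apart either.

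The median intensity of an array lay between 56.6 and 59.1, except for bone marrow replicate 3 of NKDxIL15tg at 64.9. The mean rank correlation with the arrays of the same group was 0.877 in this array and 0.916 to 0.976 in the others, and a fit with array weights gave it a weight of 0.18 against 0.68 to 2.34. NK cell markers had a summed intensity over 10 genes of 34380 to 35970 for IL15tg spleen, 24510 to 26460 for the NKDxIL15tg spleen arrays and 21330 to 23980 for those of bone marrow. Gzma was the largest part (group means 11530, 10560 and 9131 in this order), while Klrk1 was at 1383, 172.5 and 195.6. For Gapdh, the 3′ control probe set exceeded its 5′ partner by 1.99, 2.62 and 3.21 on the log2 scale for IL15tg spleen, above all 3 arrays of NKDxIL15tg spleen (1.62 to 1.87), and 1.87 to 2.33 for bone marrow. For actin it was 1.80 to 2.73, 1.54 to 2.03 and 0.93 to 1.77, lowest in bone marrow replicate 3. Intensities are linear values as deposited and are not compared between probe sets. The number of arrays limits the precision, with a median standard error (SE) of a log2 change of 0.15 over all tested probe sets.

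Between the spleen groups, Itgam and Itgax were far lower in NKDxIL15tg cells, Itga1 and Itgb1 were higher, and Itga4 was lower at 2 of its 5 probe sets. Of the 20 tested integrin probe sets, 9 changed at an adjusted p below 0.05 (limma), 5 higher and 4 lower, from 5 of the 10 genes. Over all 27022 tested probe sets, 3725 changed (13.8%), 6.75% higher and 7.04% lower. The 2 spleen groups did not overlap at 13 of the 20 integrin probe sets, with NKDxIL15tg higher at 5 and lower at 8. Over all tested probe sets this held for 38.1%, with 19.3% higher and 18.8% lower. The median change of the integrin probe sets was -0.27 on the log2 scale and that of all tested probe sets 0.00. The filter uses the mean over all 9 arrays, so a probe set can pass through the groups in which it is bright. Itgam, Itga1 1439713_at, and Itga4 1427615_at and 1450155_at passed in this way, each with a group mean under the filter level of 47.7. These counts and medians are descriptions. The count over all probe sets was 1809 without IL15tg spleen replicate 1, 1812 without replicate 2, 2070 without replicate 3 and 2112 without NKDxIL15tg spleen replicate 2. The integrin count was 5 without IL15tg spleen replicate 2.

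In NKDxIL15tg bone marrow against IL15tg spleen, which adds the organ to these differences, 14 of the 20 integrin probe sets changed, 5 higher and 9 lower, from 7 genes. Over all tested probe sets, 5764 changed (21.3%), 9.79% higher and 11.5% lower. The groups did not overlap at 16 of the 20, 6 higher and 10 lower, against 42.9% of all tested (22.5% higher and 20.4% lower), and the median change was -0.45 for the integrins and 0.08 for all. Without IL15tg spleen replicate 1 the integrin count was 8 and the count over all probe sets 3089, and without IL15tg spleen replicate 2 the latter was 3480. The 2 comparisons share the IL15tg spleen arrays, so their values are given side by side and are not independent of each other.

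**Figure D1:**
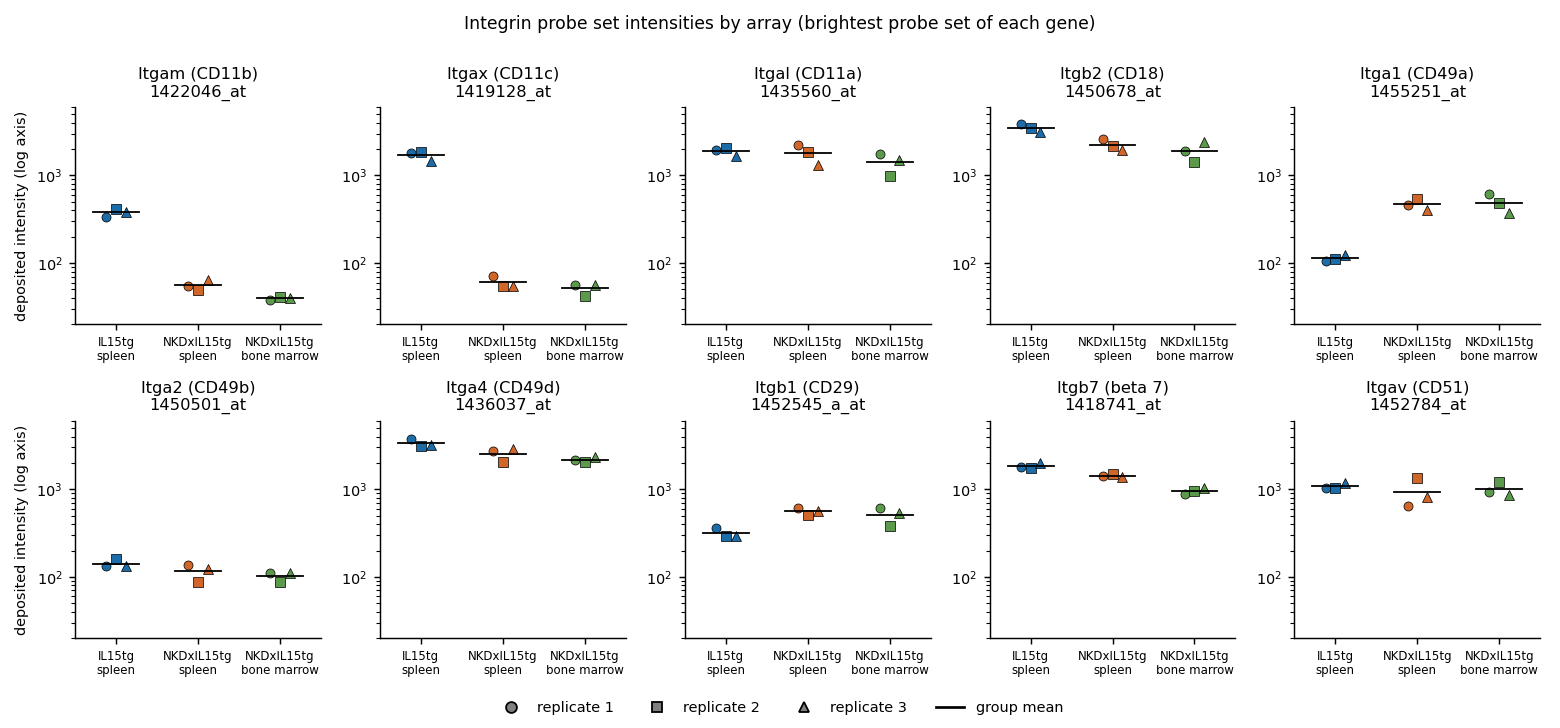
Deposited intensity (log axis) of the brightest probe set of each of the 10 integrin genes on each of the 9 arrays, with the group mean as a line and 1 symbol per replicate. Itgam and Itgax stand high in the 3 IL15tg spleen arrays only, Itga1 and Itgb1 stand low there, and the other 6 genes lie closer together.

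The leukocyte integrins of the beta 2 family split into 2 patterns. Itgam (probe set 1422046_at, chromosome 7) encodes CD11b, the alpha chain of complement receptor Mac-1. It read 338, 409.8 and 386 in the IL15tg spleen arrays, 54.1, 48.8 and 64.2 in NKDxIL15tg spleen and 37.4, 40.6 and 40.4 in NKDxIL15tg bone marrow. Every IL15tg array lay above every NKDxIL15tg array, and the spleen and bone marrow arrays of NKDxIL15tg did not overlap. In NKDxIL15tg spleen the level was 6.82-fold lower than in IL15tg spleen (log2 change -2.77, SE 0.13, adjusted p = 4.15e-06), and in bone marrow 9.56-fold lower (-3.26, SE 0.13, adjusted p = 2.32e-06). The bone marrow intensities lie under 47.7, the level of the filter on dim signal, which Itgam passed through its bright IL15tg arrays, so the size of the bone marrow change is uncertain. With intensities under 64 set to 64 the log2 change was -2.56 in both comparisons (adjusted p = 5.40e-06 and 5.70e-06).

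Itgax (1419128_at, chromosome 7) encodes CD11c, the alpha chain widely used as a dendritic cell marker and also carried by NK cells. It read 1795, 1867 and 1448 in IL15tg spleen, 72.0, 54.9 and 55.4 in NKDxIL15tg spleen and 56.6, 42.0 and 56.8 in NKDxIL15tg bone marrow. All 6 NKDxIL15tg arrays lay far below the 3 IL15tg arrays, and those of spleen and bone marrow overlapped. The change was 28.1-fold in the spleen comparison (log2 change -4.81, SE 0.17, adjusted p = 1.12e-06) and 33.0-fold from IL15tg spleen to bone marrow (-5.04, SE 0.17, adjusted p = 9.04e-07). The level stood at the 98.3rd percentile of an IL15tg spleen array in the median replicate, and at the 48.8th and 44.8th percentile in NKDxIL15tg spleen and bone marrow. Itgam and Itgax passed the test under all 17 alternative settings (other floors, filters, scalings and fits, or 1 array left out) in both comparisons.

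Itgal (1435560_at, chromosome 7) encodes CD11a, the alpha chain of LFA-1, which binds ICAM on target cells. It read 1933, 2048 and 1655 in IL15tg spleen, 2245, 1862 and 1328 in NKDxIL15tg spleen and 1739.7, 999.2 and 1507 in NKDxIL15tg bone marrow. The 3 groups overlapped, with the highest and the second lowest array both in NKDxIL15tg spleen. The log2 change between spleens was -0.08 (95% confidence interval -0.63 to 0.47, adjusted p = 0.904), and from IL15tg spleen to bone marrow -0.44 (-0.99 to 0.11, adjusted p = 0.22). The second Itgal probe set, 1425367_at, gave 0.22 (-0.21 to 0.65, adjusted p = 0.534) and -0.28 (-0.71 to 0.15, adjusted p = 0.309). Neither probe set passed the test, and the intervals leave out a fall of the size measured for Itgam or Itgax.

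Itgb2 (1450678_at, chromosome 10) encodes CD18, the beta chain that all 3 of these alpha chains need. It read 3841, 3504 and 3099 in IL15tg spleen, 2599, 2189 and 1952 in NKDxIL15tg spleen and 1885, 1411 and 2439 in NKDxIL15tg bone marrow. All NKDxIL15tg arrays lay below all IL15tg arrays. The level was 1.86-fold lower in bone marrow than in IL15tg spleen (log2 change -0.89, SE 0.20, adjusted p = 0.0139), a call lost without IL15tg spleen replicate 1 (adjusted p = 0.062, the highest over 17 settings, the lowest being 0.000851). In NKDxIL15tg spleen the log2 change of -0.64 (SE 0.20) did not pass (adjusted p = 0.0692). It passed in 6 of 17 settings, among them without bone marrow replicate 2 (0.0354) or replicate 3 (0.0173), where the spread of the bone marrow group enters the test, and the adjusted p ranged from 0.0132 to 0.212.

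The genes Itgam and Itgax are neighbours on chromosome 7, and Itga2 and Itga1 are neighbours on chromosome 13. The order from RefSeq is Pycard, Trim72, Itgam, Itgax, Itgad and Cox6a2, and Fst, Mocs2, Itga2, Itga1, Pelo and Isl1, with Pelo inside Itga1. The neighbours were looked up after the integrin values were seen. Pycard, an inflammasome adaptor, fell by 0.46 on the log2 scale in the spleen comparison (SE 0.13, adjusted p = 0.048), and Cox6a2, a subunit of cytochrome oxidase, fell by 0.85 (SE 0.10, adjusted p = 0.000782). Trim72 was too dim for a test, and Itgad had no probe set of its own. Beside Itga1, Mocs2 gave a change of 0.05 (SE 0.13, adjusted p = 0.898) and Pelo 0.15 (SE 0.17, adjusted p = 0.645), and Fst and Isl1 were too dim.

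Promoter windows from RefSeq (GRCm38.p6) are given for these 2 neighbour pairs, because 1 pair fell together and the other parted. A window was matched for 8 of the 10 integrin genes, and the 250 bases before the annotated start were searched on both strands for GAGGAA (the PU.1 core), TGTGGT (RUNX), GGGCGG (SP1), CACCTG (ZEB) and GGTGTGA (T-box). None of these letter strings is part of another. The windows lie at chr7:128062390-128062639 on the plus strand (Itgam), chr7:128129300-128129549 on the plus strand (Itgax), chr13:115101965-115102214 on the minus strand (Itga1) and chr13:114932101-114932350 on the minus strand (Itga2). Sequences run 5′ to 3′ in the direction of the gene, and capitals mark a match on either strand.
Itgam: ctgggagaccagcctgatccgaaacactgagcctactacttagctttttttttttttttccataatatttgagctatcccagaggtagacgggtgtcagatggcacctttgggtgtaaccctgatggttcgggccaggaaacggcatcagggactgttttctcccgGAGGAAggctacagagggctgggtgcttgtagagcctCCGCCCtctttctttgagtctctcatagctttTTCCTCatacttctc
Itgax: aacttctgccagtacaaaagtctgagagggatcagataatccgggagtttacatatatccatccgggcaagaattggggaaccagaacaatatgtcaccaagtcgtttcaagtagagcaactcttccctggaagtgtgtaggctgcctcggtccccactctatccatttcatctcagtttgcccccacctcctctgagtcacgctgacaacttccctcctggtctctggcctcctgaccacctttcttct
Itga1: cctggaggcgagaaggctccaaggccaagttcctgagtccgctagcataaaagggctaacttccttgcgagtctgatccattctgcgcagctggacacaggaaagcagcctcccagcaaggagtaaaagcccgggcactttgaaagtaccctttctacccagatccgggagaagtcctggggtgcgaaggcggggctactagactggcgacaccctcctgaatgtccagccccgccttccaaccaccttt
Itga2: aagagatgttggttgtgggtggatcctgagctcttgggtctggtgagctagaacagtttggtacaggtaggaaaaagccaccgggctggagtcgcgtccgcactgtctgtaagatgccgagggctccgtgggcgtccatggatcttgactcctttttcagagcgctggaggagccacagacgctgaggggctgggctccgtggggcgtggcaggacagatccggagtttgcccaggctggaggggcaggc
The Itgam window held GAGGAA 2 times, with the first base 84 bases before the start on the gene's strand and 15 bases before it on the other, and GGGCGG 1 time, 47 bases before the start on the other strand. The windows of Itgax, Itga1 and Itga2 held none of the 5 strings, nor did that of Itgb7. The window of Itga4 held the RUNX string TGTGGT, the SP1 string GGGCGG and the T-box string GGTGTGA 1 time each, that of Itgb1 GAGGAA and the SP1 string 1 time each, and that of Itgav GAGGAA 2 times. Of 32851 windows of the same length, 23.3% held GAGGAA, 14.0% TGTGGT, 32.7% GGGCGG, 17.2% CACCTG and 3.33% GGTGTGA. A match is a match of letters only, and binding was not measured.

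Among the chains that bind collagen and other matrix, Itga1 and its partner Itgb1 both rose, while Itga2 did not pass the test. Itga1 (1455251_at, chromosome 13) encodes CD49a. It read 105, 110.1 and 125 in IL15tg spleen, 464, 543 and 408 in NKDxIL15tg spleen and 607, 488 and 371 in NKDxIL15tg bone marrow. The IL15tg arrays all lay below the NKDxIL15tg arrays, whose 2 organs overlapped. The level was 4.14-fold higher in NKDxIL15tg spleen (log2 change 2.05, SE 0.19, adjusted p = 0.000208) and 4.24-fold higher in bone marrow (2.08, SE 0.19, adjusted p = 0.00016), and both calls held in all 17 settings.

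A second Itga1 probe set, 1439713_at, was dim in IL15tg spleen at 32.0, 26.3 and 29.4, and read 65.8, 80.4 and 76.9 in NKDxIL15tg spleen and 89.5, 72.9 and 62.2 in bone marrow. It passed the filter through the NKDxIL15tg arrays, which are all above the IL15tg arrays. Its log2 change was 1.35 (SE 0.16) in both comparisons, with adjusted p = 0.000823 for spleen and 0.000579 for bone marrow. With intensities under 64 set to 64, the change shrank to 0.21 (adjusted p = 0.386) and 0.22 (adjusted p = 0.291), since the IL15tg values all lie under that floor. In the other 16 settings it passed.

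Itgb1 encodes CD29, the shared beta 1 chain (chromosome 8). Its brightest probe set, 1452545_a_at, read 365, 292 and 293 in IL15tg spleen, 616, 509.5 and 571 in NKDxIL15tg spleen and 605, 377 and 543 in bone marrow. The IL15tg arrays lay below all 6 others, with bone marrow replicate 2 nearest to them. The log2 change was 0.84 (SE 0.18, adjusted p = 0.0182) in spleen and 0.66 (SE 0.18, adjusted p = 0.0336) in bone marrow. Probe sets 1426918_at (0.78, adjusted p = 0.0235, and 0.65, adjusted p = 0.0362) and 1427771_x_at (0.87, adjusted p = 0.0341, and 0.77, adjusted p = 0.0386) changed in the same direction. Since 1452545_a_at and 1427771_x_at are annotated to the same cDNA, they are not independent readings. The other 3 Itgb1 probe sets read 14.4 to 55.1 on all arrays and were not tested.

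The Itgb1 calls depended on the processing and on single arrays. With intensities under 64 set to 64, the bone marrow call was lost at all 3 probe sets (adjusted p = 0.0561 for 1452545_a_at, 0.0595 for 1426918_at and 0.0714 for 1427771_x_at). The spleen call of 1427771_x_at was lost too (0.0653). With no filter, or only the 2 groups compared, 2 integrin probe sets were higher in bone marrow than in IL15tg spleen, both of Itga1. For 1452545_a_at the spleen call was lost without IL15tg spleen replicate 2 (adjusted p = 0.0739), without its replicate 3 (0.0701) and without NKDxIL15tg spleen replicate 1 (0.0595), with a range over 17 settings of 0.00308 to 0.0739. Its bone marrow call held in 9 of 17 settings (adjusted p 0.0081 to 0.11) and was lost without IL15tg spleen replicate 1 (0.0502), replicate 2 (0.11) or replicate 3 (0.102) and without bone marrow replicate 1 (0.0901) or replicate 3 (0.0542). For 1426918_at the spleen call was lost without IL15tg spleen replicate 2 (0.072) or 3 (0.0861) or NKDxIL15tg spleen replicate 1 (0.0759) or 2 (0.0735), with a range of 0.0094 to 0.0861, and the bone marrow call held in 8 of 17 settings (0.0204 to 0.118), being lost without IL15tg spleen replicate 1 (0.0504), 2 (0.0897) or 3 (0.118) or bone marrow replicate 1 (0.0952) or 3 (0.0588). For 1427771_x_at the calls held in 9 and 7 of 17 settings, with an adjusted p of 0.00491 to 0.118 in spleen and 0.00892 to 0.124 in bone marrow. Its spleen call was lost without any 1 of the 6 spleen arrays (IL15tg replicates 1 to 3 at 0.0513, 0.118 and 0.114, NKDxIL15tg replicates 1 to 3 at 0.098, 0.0622 and 0.0851). Its bone marrow call was lost without IL15tg spleen replicate 1 (0.0515), 2 (0.124) or 3 (0.115), replicate 1 (0.0551) or 3 (0.0558) of NKDxIL15tg spleen, or replicate 1 (0.0966) or 3 (0.0575) of bone marrow. The change stayed between 0.52 and 1.02 on the log2 scale for all 3 probe sets under all of these settings.

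Itga2 (1450501_at, chromosome 13) encodes CD49b, the collagen receptor chain recognised by the DX5 antibody with which NK cells are often stained. It read 133, 160.3 and 132 in IL15tg spleen, 137, 88.3 and 122 in NKDxIL15tg spleen and 111, 88.4 and 111 in NKDxIL15tg bone marrow. The spleen groups overlapped, and the bone marrow arrays all lay below the IL15tg arrays. The log2 change was -0.31 between spleens (95% confidence interval -0.72 to 0.10, adjusted p = 0.318) and -0.46 in bone marrow (-0.86 to -0.05, adjusted p = 0.105). Itga2 passed no test except in the bone marrow comparison with array weights (adjusted p = 0.0377, in a range of 0.0377 to 0.281).

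**Figure D2:**
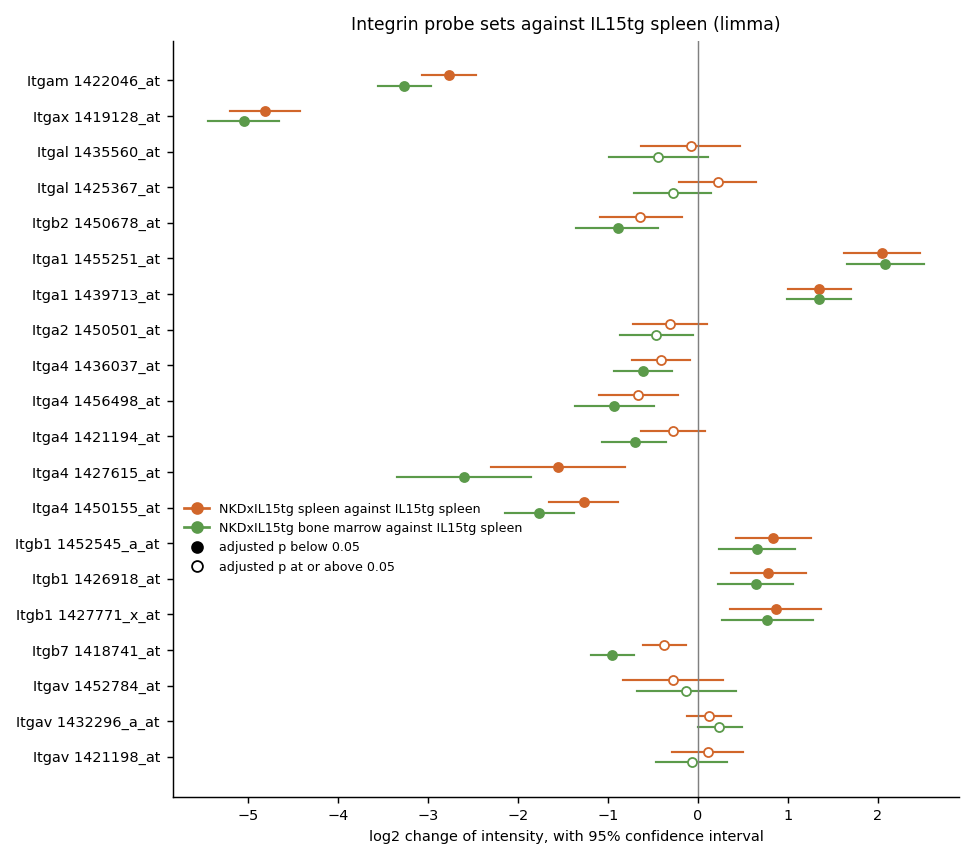
Log2 change of each of the 20 tested integrin probe sets in NKDxIL15tg spleen (orange) and NKDxIL15tg bone marrow (green) against IL15tg spleen, with 95% confidence intervals from limma. Filled points passed at an adjusted p below 0.05; Itgax lies farthest to the left at -4.81 and -5.04 and Itga1 farthest to the right at 2.05 and 2.08.

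Itga4 (chromosome 2) encodes alpha 4 or CD49d, which pairs with beta 1 to bind VCAM-1 and with beta 7 to bind the gut addressin MAdCAM-1. Its 5 tested probe sets all gave negative values in both comparisons, but by different amounts. The brightest, 1436037_at, read 3713, 3122 and 3231 in IL15tg spleen, 2709.9, 2074 and 2856 in NKDxIL15tg spleen and 2186, 2069 and 2309 in bone marrow. The IL15tg arrays lay above all others. The log2 change was -0.41 (SE 0.14, adjusted p = 0.0935) in spleen, which did not pass, and -0.61 (SE 0.14, adjusted p = 0.0155) in bone marrow, a call lost without IL15tg spleen replicate 1 (adjusted p = 0.0685, in a range of 0.0044 to 0.0685).

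Probe set 1427615_at read 298, 218 and 191 in IL15tg spleen, 54.3, 68.2 and 133 in NKDxIL15tg spleen and 38.9, 48.3 and 29.7 in bone marrow. The 3 groups did not overlap, and NKDxIL15tg spleen replicate 3 stood above its fellows. It was 2.93-fold lower in NKDxIL15tg spleen (log2 change -1.55, SE 0.33, adjusted p = 0.0158) and 6.06-fold lower in bone marrow (-2.60, SE 0.33, adjusted p = 0.000943). The spleen call was lost without IL15tg spleen replicate 1 (adjusted p = 0.0689) or 2 (0.0529) or NKDxIL15tg spleen replicate 2 (0.0629), with a range over settings of 0.00364 to 0.0689. The bone marrow call held in all 17, but its size rests on intensities near or under the filter level of 47.7, and with intensities under 64 set to 64 it was -1.85 (adjusted p = 0.00843).

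Probe set 1450155_at read 163, 151 and 122 in IL15tg spleen, 54.2, 59.8 and 66.1 in NKDxIL15tg spleen and 48.5, 34.5 and 46.5 in bone marrow. Again the 3 groups did not overlap. It was 2.42-fold lower in NKDxIL15tg spleen (log2 change -1.27, SE 0.17, adjusted p = 0.00164) and 3.39-fold lower in bone marrow (-1.76, SE 0.17, adjusted p = 0.00022), and both calls held in all 17 settings. With intensities under 64 set to 64 the bone marrow change was -1.18 (adjusted p = 0.000775), close to the -1.16 of spleen under that floor.

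The other 2 Itga4 probe sets fell in bone marrow. Probe set 1456498_at gave -0.66 (SE 0.19, adjusted p = 0.053) in spleen and -0.93 (SE 0.19, adjusted p = 0.0102) in bone marrow. With the replicate number as a block its spleen change passed (adjusted p = 0.0256), as it did in 8 of 17 settings in all, among them without NKDxIL15tg spleen replicate 3 (0.0256), bone marrow replicate 2 (0.0407) or bone marrow replicate 3 (0.0242), in a range of 0.0206 to 0.176. Probe set 1421194_at gave -0.27 (SE 0.16, adjusted p = 0.308) in spleen and -0.70 (SE 0.16, adjusted p = 0.0137) in bone marrow, the latter lost without IL15tg spleen replicate 1 (adjusted p = 0.0591, in a range of 0.00486 to 0.0591). The 5 probe sets of Itga4 thus ranged from -0.27 to -1.55 in spleen and from -0.61 to -2.60 in bone marrow, and which part of the transcript each one reads was not examined. The 3′ excess of Gapdh, higher on the IL15tg than on the NKDxIL15tg spleen arrays, was not tested for a part in this spread. Atf2, where the NKD transgene is reported to lie, is on chromosome 2, as are Itga4 and Itgav. A part of this location in their values was not tested. Near Itga4, Ube2e3 gave 0.19 (SE 0.15, adjusted p = 0.487, limma) and Neurod1 0.18 (SE 0.13, adjusted p = 0.449) in spleen, and Cerkl was too dim.

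**Figure D3:**
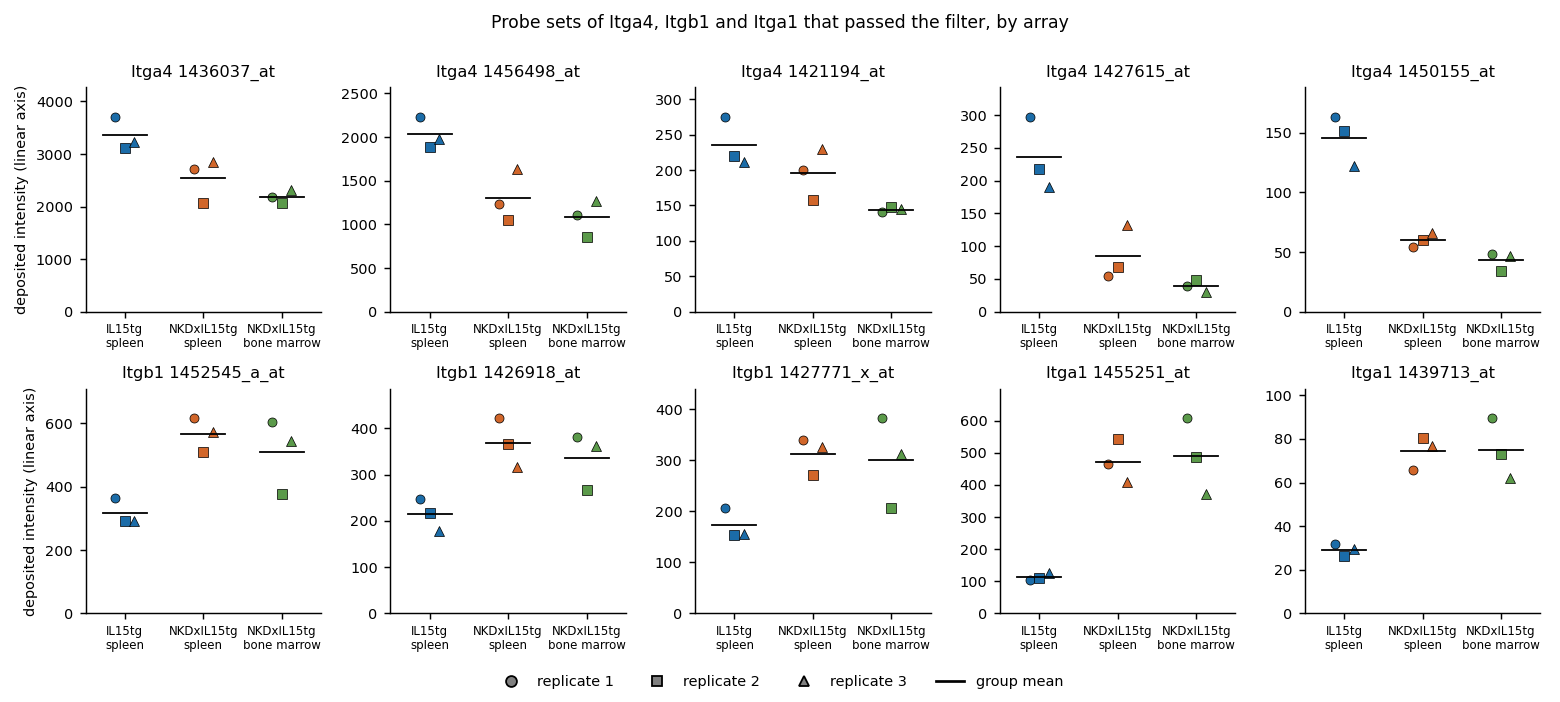
Deposited intensity (linear axis from 0, a scale of its own in each panel) of the 5 Itga4, 3 tested Itgb1 and 2 Itga1 probe sets on each array, with the group mean as a line. IL15tg spleen is highest in the 5 Itga4 panels by group mean and lowest in the 5 panels of Itgb1 and Itga1.

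Itgb7 (1418741_at, chromosome 15) encodes the beta 7 chain of gut-homing integrins. It read 1775, 1773 and 2014 in IL15tg spleen, 1436, 1493 and 1371 in NKDxIL15tg spleen and 883, 965 and 1022 in NKDxIL15tg bone marrow. The 3 groups did not overlap, with IL15tg spleen highest and bone marrow lowest. In bone marrow it was 1.94-fold lower than in IL15tg spleen (log2 change -0.95, SE 0.11, adjusted p = 0.000494), in all 17 settings. In NKDxIL15tg spleen the log2 change of -0.37 (SE 0.11) missed the threshold (adjusted p = 0.0504) and passed in 6 of 17 settings (adjusted p 0.0232 to 0.163), among them without bone marrow replicate 3 (0.0319).

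Itgav (chromosome 2) encodes alpha V, a chain of receptors for vitronectin and other proteins with an RGD motif. Its brightest probe set, 1452784_at, read 1042, 1027 and 1168 in IL15tg spleen, 649, 1333 and 818 in NKDxIL15tg spleen and 920.0, 1209 and 864 in bone marrow. The groups overlapped, with the lowest and the highest array both in NKDxIL15tg spleen. The log2 change was -0.27 in spleen (95% confidence interval -0.83 to 0.28, adjusted p = 0.551) and -0.13 in bone marrow (-0.68 to 0.43, adjusted p = 0.725). Probe sets 1432296_a_at and 1421198_at read 48.5 to 79.7 and did not pass in any setting, and 2 more Itgav probe sets, at 14.9 to 43.2, were not tested.

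Between the 2 organs of NKDxIL15tg mice, 0 of the 20 integrin probe sets changed (limma, lowest adjusted p = 0.208), and 14 of all 27022 did (0.0518%, with 0.0111% higher and 0.0407% lower). At an unadjusted p below 0.05 there were 6 of the 20, all lower in bone marrow, and 2816 of all tested (10.4%, 1501 higher and 1315 lower). The groups did not overlap at 5 of the 20, all lower in bone marrow, against 16.1% of all tested (9.77% higher and 6.31% lower), and the median change was -0.22 for the integrins and 0.02 for all. With the replicate number as a block, 23 probe sets changed in all and 0 integrin probe sets. The count over all probe sets was 1 without NKDxIL15tg spleen replicate 1, 4 without its replicate 3 and 4 without bone marrow replicate 2, and the integrin count stayed 0.

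Single integrins differed in how narrow their interval was in this organ comparison. Itgb7 gave -0.58 (SE 0.11, 95% confidence interval -0.83 to -0.34, adjusted p = 0.208), with all bone marrow arrays below all spleen arrays. Beside it, the B cell gene Ms4a1 fell by 2.94 between these groups (adjusted p = 0.00506), a call lost without NKDxIL15tg spleen replicate 1 (0.0691), with no filter (0.0622) and with intensities under 64 set to 64 (change -1.13, adjusted p = 0.285). Its part in the Itgb7 value was not tested. Itgam gave -0.49 (-0.78 to -0.19, adjusted p = 0.358), also without overlap, though at low signal, and 0.00 with intensities under 64 set to 64. The Itga4 probe sets gave -0.21 to -1.05 (adjusted p 0.406 to 0.544), and at 3 of the 5 the organs did not overlap. Under the same floor 1427615_at went from -1.05 to -0.38 and 1450155_at from -0.49 to -0.02. Itga1 gave 0.03 (-0.39 to 0.46, adjusted p = 0.952) and Itgax -0.23 (-0.62 to 0.16, adjusted p = 0.551). An organ difference of the size of the spleen differences of Itga1 or Itgax lies outside these intervals. In simulated data with 200 changed genes, 80% of 50 with a 2-fold and 16% with a 1.5-fold change were called here. The real comparison called only 14 probe sets, so its adjusted threshold is stricter and these shares are likely too high for it. Ngp changed by 2.28 (SE 0.36) without passing (limma, adjusted p = 0.131). Camp changed by 2.79 (SE 0.47), also without passing (adjusted p = 0.178). Differences of 2-fold or less may therefore be missed, and so may larger ones at probe sets with a wide spread.

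Since alpha and beta chains work in pairs, the log2 difference between an alpha chain and its partner was taken within each array and set to 0 at the IL15tg spleen mean. It shows unequal change only, and is given as mean ± SD of 3 arrays. Itgam minus Itgb2 was -2.13 ± 0.36 in NKDxIL15tg spleen and -2.36 ± 0.41 in bone marrow, and Itgax minus Itgb2 was -4.17 ± 0.09 and -4.15 ± 0.21. Itgal minus Itgb2 went the other way, at 0.56 ± 0.19 and 0.45 ± 0.29, with all 6 NKDxIL15tg arrays (0.20 to 0.77) above the 3 IL15tg arrays (-0.10 to 0.12).

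For the beta 1 chain, Itga1 minus Itgb1 was 1.21 ± 0.31 in NKDxIL15tg spleen and 1.42 ± 0.46 in bone marrow. Itga2 minus Itgb1 was -1.15 ± 0.20 and -1.12 ± 0.18, and Itga4 minus Itgb1 was -1.25 ± 0.15 and -1.28 ± 0.30. Both groups lay outside the range of the IL15tg arrays for these 3 pairs. Itgav minus Itgb1 spread more, at -1.11 ± 0.67 and -0.79 ± 0.60, and bone marrow replicate 2, at -0.09, fell inside the IL15tg range of -0.26 to 0.22. Itga4 minus Itgb7 was -0.04 ± 0.30 in NKDxIL15tg spleen, with the mean inside the IL15tg range, and 0.34 ± 0.11 in bone marrow, above it. These differences have no test of their own.

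**Figure D4:**
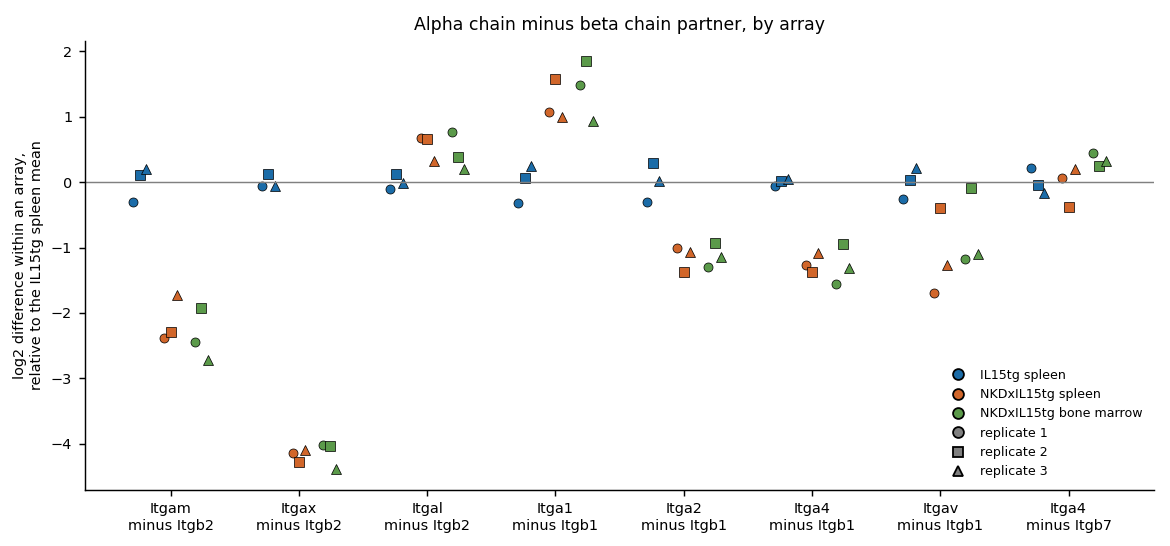
Log2 difference between the brightest probe sets of an alpha chain and its beta partner on each array, relative to the IL15tg spleen mean (grey line at 0). The NKDxIL15tg arrays lie near -4 for Itgax minus Itgb2 (-4.39 to -4.02), between -2.72 and -1.73 for Itgam minus Itgb2 and above the IL15tg arrays for Itgal minus Itgb2 and Itga1 minus Itgb1.

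Across the 9 arrays, which share 3 groups, the integrins followed one another to different degrees. Pearson's r of log2 intensity was 0.99 between Itgam and Itgax and -0.98 between Itga1 and each of them, and 0.03 between Itgal and Itgb1. For each integrin, the 3 probe sets of other genes with the highest r were listed. Itgam was followed by Gsap (0.996), AI504432 (0.995) and Klrb1a (0.995), an NK cell receptor gene with mean intensities of 1687, 422 and 323 in IL15tg spleen, NKDxIL15tg spleen and NKDxIL15tg bone marrow. Itgax was followed by Mef2c (0.997), Fcgr2b (0.994) and Spata6 (0.993), of which Fcgr2b, an inhibitory Fc receptor, had means of 337, 144 and 145. Itga1 was followed by Ndufc2 (0.993), Trhr (0.993) and Atpif1 (0.992), with Trhr at 8.60, 165 and 175. These orders rest on the group differences, and r carries no test here.

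Itgb7 was followed by Pou2af1 (0.985), Ms4a1 (0.984) and Cr2 (0.979), all known from B cells. The means of Ms4a1 probe set 1450912_at, the gene of CD20, were 277, 92.3 and 14.3. Itgb1 was followed by Reck (0.978), Cd200r4 (0.977) and Setd7 (0.973), Itgb2 by Rnf166 (0.987), Ccdc117 (0.980) and Klf2 (0.977), a transcription factor of lymphocyte trafficking, and Itga4 by Gm5817 (0.988), Papolg (0.988) and Slbp (0.985). The leading genes were Yy1 (0.975), Arhgef7 (0.975) and Was (0.970) for Itgal, Atf7ip (0.976), Acvr1b (0.967) and Pex26 (0.958) for Itga2, and Pdcd1lg2 (0.977), Pdk1 (0.961) and Eif2ak4 (0.902) for Itgav.

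Besides the 10 integrins, 4 lists of related genes were examined, with 73 genes tested. Of these, 12 changed in NKDxIL15tg spleen (16.4%) and 13 in bone marrow (17.8%), against 12.5% and 20.2% of the 12925 genes tested by their brightest probe set, so both shares lie near the background. Over all genes 7.65% rose and 4.87% fell in spleen, and 11.5% rose and 8.70% fell in bone marrow.

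Of 17 other integrin subunits, 12 were tested by their brightest probe set, and 2 rose in NKDxIL15tg spleen while 0 fell (median change 0.08, against 0.02 over 12925 genes). Itga6, a laminin receptor chain, had a mean intensity of 374 ± 31.6 (SD, n = 3) for IL15tg spleen, 731 ± 43.0 for NKDxIL15tg spleen and 528 ± 22.9 for NKDxIL15tg bone marrow. Its log2 change was 0.97 in spleen (SE 0.11, adjusted p = 0.000607) and 0.50 in bone marrow (SE 0.11, adjusted p = 0.0105), the latter lost with quantile normalization (0.0509) and with scaling to a common 75th percentile (0.0593). A second probe set of Itga6 gave 0.46 (adjusted p = 0.254) and 0.01 (adjusted p = 0.977). Itgb5 rose by 1.02 in spleen (SE 0.17, adjusted p = 0.00478), where another of its probe sets gave -0.23 (adjusted p = 0.80). In bone marrow 1 subunit rose, Itga6, and 0 fell (median 0.22 against 0.12). The brightest Itgb3 probe set gave 0.09 (adjusted p = 0.667) in spleen, while 1455257_at gave -0.87 (adjusted p = 0.0148), so the probe sets of Itga6, Itgb5 and Itgb3 did not read alike.

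Proteins that switch integrins on or bind their tails moved in both directions. Of 26 listed, 23 were tested, and in NKDxIL15tg spleen 3 rose and 2 fell (median -0.03). Rasgrp2, an exchange factor that activates Rap1 and through it integrins, fell by 1.14 (SE 0.11, adjusted p = 0.000269) and in bone marrow by 1.53 (SE 0.11, adjusted p = 3.98e-05), from a mean of 184 ± 9.92 to 83.6 ± 6.18 and 63.9 ± 4.87 (SD, n = 3). The other 3 Rasgrp2 probe sets gave -0.29 (adjusted p = 0.269), -1.13 (0.00794) and -1.17 (0.00489) in spleen. Apbb1ip, the Rap1 effector RIAM, fell by 1.32 in spleen (SE 0.29, adjusted p = 0.0182) and by 1.30 in bone marrow (SE 0.29, adjusted p = 0.0138). Its spleen call was lost without IL15tg spleen replicate 1 (0.077) or 3 (0.0602) or NKDxIL15tg spleen replicate 1 (0.0539) or 2 (0.0632), and its bone marrow call without IL15tg spleen replicate 1 (0.0624).

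Fyb, an adaptor that links T cell receptor signals to integrins, rose by 0.66 (SE 0.10, adjusted p = 0.00416) in spleen and 0.57 (SE 0.10, adjusted p = 0.00579) in bone marrow. Rasgrp1, an activator of Ras, rose by 0.53 (SE 0.12, adjusted p = 0.0178) and 0.59 (SE 0.12, adjusted p = 0.00787). Other Rasgrp1 probe sets gave 0.50 (adjusted p = 0.0518), 0.27 (0.405) and 0.58 (0.0369) in spleen. In bone marrow the same probe sets gave 0.02 (0.922), 0.36 (0.195) and 0.38 (0.112). The Rasgrp1 spleen call was lost without IL15tg spleen replicate 1 (0.0735), 2 (0.059) or 3 (0.0542) or NKDxIL15tg spleen replicate 1 (0.0558). Vcl, which couples integrins to actin, rose by 0.66 in spleen (SE 0.15, adjusted p = 0.0208), a call lost without IL15tg spleen replicate 1 (0.0502), 2 (0.0549) or 3 (0.0763) or NKDxIL15tg spleen replicate 1 (0.0662). In bone marrow 3 of this list rose and 4 fell (median 0.03), the further ones being Vcl at 0.49 (adjusted p = 0.047), Rap1b, a small GTPase upstream of talin, at -0.44 (adjusted p = 0.0168) and Sharpin, an integrin inhibitor, at -0.41 (adjusted p = 0.0158). Another Sharpin probe set gave -0.18 (adjusted p = 0.272). Leaving out a single array ended the call at 4 arrays for Rap1b (IL15tg spleen replicates 1 and 2 and bone marrow replicates 1 and 2, adjusted p 0.0665, 0.0613, 0.0561 and 0.0511), at all 3 IL15tg spleen arrays for Sharpin (0.0529, 0.0507 and 0.0562), and at 7 arrays for Vcl (all 3 IL15tg spleen arrays, NKDxIL15tg spleen replicates 2 and 3 and bone marrow replicates 1 and 2, adjusted p 0.0554 to 0.146). Tln1 and Fermt3, the talin and kindlin that bind the beta tail, gave 0.01 (adjusted p = 0.997) and 0.08 (adjusted p = 0.878) in spleen.

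Of 28 genes of integrin signalling and the adhesion complex, 23 were tested, and 2 rose and 1 fell in NKDxIL15tg spleen (median -0.04), against 1 and 1 in bone marrow (median -0.07). Bcar1, a scaffold of focal adhesions, rose by 1.32 (SE 0.21, adjusted p = 0.00375) in spleen and 0.99 (SE 0.21, adjusted p = 0.0102) in bone marrow, but its other probe set gave -0.02 (adjusted p = 0.982) and 0.35 (adjusted p = 0.381). Fgr, a kinase of the Src family, fell by 0.97 (SE 0.23, adjusted p = 0.0231) and 1.12 (SE 0.23, adjusted p = 0.00883), and its other probe set gave 0.13 (adjusted p = 0.59) and 0.26 (adjusted p = 0.171). The Fgr spleen call was lost without any 1 of IL15tg spleen replicates 1 (0.0605), 2 (0.0777) and 3 (0.0831) and NKDxIL15tg spleen replicates 1 (0.0749) and 3 (0.0691). Lims1 rose by 0.43 in spleen (SE 0.10, adjusted p = 0.0252), a call lost without any 1 of IL15tg spleen replicates 1 (0.0766), 2 (0.0683) and 3 (0.0914) and NKDxIL15tg spleen replicates 2 (0.0753) and 3 (0.0696), with quantile normalization (0.107) and with 75th percentile scaling (0.0826). Other Lims1 probe sets gave 0.15 (adjusted p = 0.617), 0.57 (0.00973), -0.12 (0.644) and -0.50 (0.109) in spleen.

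Of 29 integrin ligands, 15 were tested, 11 were too dim for a test and 3 could not be matched to a probe set, and 0 rose and 2 fell in NKDxIL15tg spleen (median -0.01), against 0 and 3 in bone marrow (median -0.02, where all genes had 0.12). Icam2, a ligand of LFA-1 on lymphocytes and endothelium, went from 321 ± 38.9 to 167 ± 11.2 and 166 ± 14.9 (SD, n = 3), a fall of 0.93 (SE 0.12, adjusted p = 0.00171) and 0.95 (SE 0.12, adjusted p = 0.00112). Tgfb1, whose latent form is bound and activated by alpha V integrins, fell by 0.57 (SE 0.12, adjusted p = 0.0164) and 0.75 (SE 0.12, adjusted p = 0.00327). Its spleen call was lost without IL15tg spleen replicate 2 (0.0618) or 3 (0.0661) or NKDxIL15tg spleen replicate 2 (0.0555) and with 75th percentile scaling (0.0932). Icam1 fell by 0.74 in bone marrow (SE 0.14, adjusted p = 0.00716). Between the organs of NKDxIL15tg mice, 0 of the 73 tested genes of these 4 lists changed (limma), against 0.0696% of all genes (0.0232% higher and 0.0464% lower), and 8 had an unadjusted p below 0.05, 3 higher and 5 lower. The count of 12 genes in spleen was 7 without IL15tg spleen replicate 1, 7 without replicate 2 and 6 without replicate 3.

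Several integrins are also carried by other cells, and marker lists of those cells moved between the groups. CD11b and CD18 are abundant on granulocytes and monocytes, whose 16 listed markers summed to 3941 to 4189 in IL15tg spleen, 6756 to 11520 in NKDxIL15tg spleen and 15170 to 35460 in bone marrow. Ccr2 (group means 2401, 3100 and 3372) and Csf1r (737, 659 and 1297) made up most of the IL15tg spleen sum. Of the 14 tested, 6 rose in NKDxIL15tg spleen and 12 in bone marrow, while 0 fell. S100a8, a calprotectin subunit, went from 148 to 1806 and 5421, Ngp from 73.1 to 564 and 2842, and Mpo, myeloperoxidase, from 103 to 161 and 1126. The Lcn2 call in spleen was lost without any 1 of the 6 spleen arrays (adjusted p 0.0534 to 0.12) and the Ltf call with intensities under 64 set to 64 (0.0616). Itgam was lowest in bone marrow, where the sum of these markers was highest. Itgam passed in both comparisons without bone marrow replicate 3 as well, the array with the highest sum. Bone marrow replicates 1 and 2 still summed to 15170 and 21670. The part of granulocytes and monocytes in the Itgam values was not tested.

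CD11c is abundant on dendritic cells, and beta 7 is carried by B cells. Of 12 tested markers of macrophages and dendritic cells, 4 fell in NKDxIL15tg spleen and the same number in bone marrow, namely H2-Aa, H2-Ab1, H2-Eb1 and Cd74, which B cells share. In spleen the Cd74 call was lost without IL15tg replicate 2 (adjusted p = 0.0883) or 3 (0.0861) or NKDxIL15tg replicate 2 (0.0849) or 3 (0.068), and the H2-Ab1 call without IL15tg replicate 2 (0.0661). The sums were 3708 to 6858, 2673 to 2970 and 1781 to 2281. Zbtb46, a dendritic cell factor, was at 91.5, 114 and 91.2, and Adgre1, the macrophage gene of F4/80, at 109, 111 and 108. Of 5 tested B cell markers, 3 fell (Cd79a, Cd79b and Ms4a1), and the sums were 819 to 1450, 549 to 589 and 411 to 471. Within IL15tg spleen the B cell sum was 819, 1237 and 1450 in replicates 1, 2 and 3, where Itgax read 1795, 1867 and 1448 and Itgb7 1775, 1773 and 2014. The part of these cells in the values of Itgax, Itgb2, Itgb7 and Itga4 was not tested.

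CD49b and the chains Itga2b and Itgb3 are platelet integrins, and the sum over 6 platelet markers was 378 to 442 on all arrays, with 1 of the 3 tested genes higher (Gp1bb, log2 change 0.44, adjusted p = 0.0399) and 1 lower (Pf4, -0.51, adjusted p = 0.0143) in NKDxIL15tg spleen. The Gp1bb call held in only 8 of 17 settings (highest adjusted p 0.135) and was lost without any 1 of the IL15tg spleen arrays, replicates 1 and 3 of NKDxIL15tg spleen and replicates 1 and 2 of bone marrow. The Pf4 call was lost without IL15tg spleen replicate 1 (0.064) or 2 (0.0578) and with 75th percentile scaling (0.0582). CD49a is a marker of innate lymphoid cells of group 1 other than NK cells, for which 7 markers were tested. In NKDxIL15tg spleen 1 rose (Inpp4b, log2 change 2.67, adjusted p = 0.000188) and 2 fell (Il7r, -3.08, adjusted p = 3.00e-05, and Tmem176b, -1.03, adjusted p = 0.000351). Their summed level was 1366 to 1442 in IL15tg spleen, 1046 to 1218 in NKDxIL15tg spleen and 994 to 1357 in bone marrow. Of 10 NK cell markers, 3 fell in NKDxIL15tg spleen, Klrd1 and Klrk1, which encode the receptor chains CD94 and NKG2D, and Tbx21, which encodes T-bet, while 0 rose. The Tbx21 call was lost without IL15tg spleen replicate 1 (adjusted p = 0.0517). Eomes, the other T-box factor of NK cells, was at 1973, 2512 and 2528. Erythroid markers summed to 1689 to 1830, 7316 to 7806 and 5184 to 7185, of which Car2, a carbonic anhydrase, made up most (group means 1407, 7016 and 5986), while Alas2, the heme synthesis enzyme of red cells, was at 42.3, 172 and 75.4. T cell markers summed to 1212 to 1380, 2576 to 2977 and 2270 to 3147, with Cd28 (group means 380, 1637 and 1410) the 1 of 7 tested that rose in NKDxIL15tg spleen. Markers of mast cells and basophils summed to 263 to 362 and those of stroma to 277 to 421 over all arrays. The part of these cells in the integrin values was not tested.

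**Figure D5:**
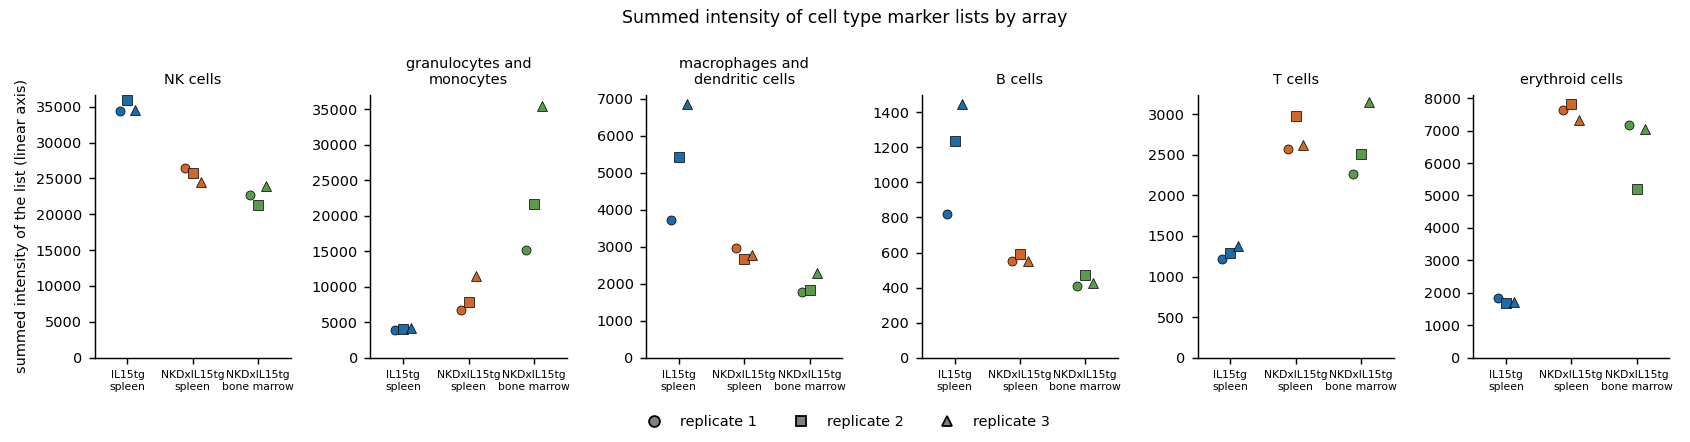
Summed deposited intensity (linear axis from 0, a scale of its own in each panel) of 6 cell type marker lists on each array, 1 symbol per replicate. The granulocyte and monocyte sum is highest in NKDxIL15tg bone marrow, at 35460 in replicate 3, and the B cell and the macrophage and dendritic cell sums are highest in IL15tg spleen.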

How the data were processed

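RNA of sorted NK cells was hybridised to 9 Affymetrix arrays, 3 per group, after extraction with Trizol and 2-cycle amplification from the 3′ end of 150 ng total RNA, per the labels' protocols. The values deposited by the authors are linear intensities, 1 for each array and probe set, and the sources used here do not give the probe summary or the scaling. Amplification from the 3′ end can lower probe sets far from it. Values under 16 (4.36% of all) were set to 16 and taken to log2 without rescaling. Probe sets with a mean log2 intensity at or above the 40th percentile of non-control probe sets (5.58, an intensity of 47.7) were tested, 27022 in all. Platform annotation gave 34945 probe sets 1 symbol, 932 several and 9160 none.

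With the 9 arrays, a linear model with a mean for each group was fitted in limma 3.58.1 (R 4.3.3), 2-sided, with Benjamini-Hochberg adjustment over all tested probe sets and a threshold of 0.05. A positive log2 change is higher in the group named first. Simulated data held 27022 probe sets, of which 200 changed. There, 72% of 50 genes with a 2-fold change and 18% with a 1.5-fold change were called in the spleen comparison. The real spleen comparison called 3725 probe sets, so its adjusted threshold is less strict and these shares may be too low for it. Listed genes are represented by their brightest probe set. Named were all 10 integrins with all probe sets, up to 4 listed genes per direction with the largest change past the threshold, and the 3 most correlated genes of each integrin. The integrins and lists were chosen with earlier results of these data known.

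Replicate numbers, taken from the sample titles, were checked by the correlation of same-numbered deviations from group means. It was 0.16, 0.16 and 0.12 between the spleens and 0.38, 0.26 and 0.23 between the NKDxIL15tg organs. Between bone marrow and IL15tg spleen it was 0.17, -0.02 and 0.24. Correlations between unlike numbers were not computed. The main tests did not pair the arrays, and the replicate number entered only as a block in an alternative setting. Alternatives were other floors, no filter, quantile and 75th percentile scaling, a replicate block, only 2 groups, array weights and leaving out each array.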

Additional observations from a re-analysis of the deposited data

How the results depend on the processing

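The number of arrays limits what can be seen. With the replicate number as a block, 3789, 23 and 5957 probe sets changed in NKDxIL15tg spleen against IL15tg spleen, bone marrow against NKDxIL15tg spleen and bone marrow against IL15tg spleen (3725, 14 and 5764 without it), 10, 0 and 14 integrin probe sets and 14, 0 and 14 listed genes; the pairing changed the integrin call named above for Itga4 and no other among the integrin probe sets. Array weights gave 5685 probe sets in the spleen comparison and 24 listed genes, against 13, in bone marrow against IL15tg spleen. Between the organs a floor of 64 gave 4 probe sets and no filter 2. Leaving out 1 array gave 1809 to 5483, 1 to 15 and 3089 to 6342 probe sets, 5 to 12 and 8 to 14 integrin probe sets (0 between organs), and 6 to 17 and 9 to 19 listed genes. The cause of these shifts was not tested, beyond the smaller number of arrays when 1 is left out. Quantile and 75th percentile scaling moved the share of calls that were higher in bone marrow against IL15tg spleen from 45.9% to 36.3% and 37.8%.

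Signs turned only in integrin changes that did not pass. In bone marrow against NKDxIL15tg spleen, Itga1 1455251_at (0.03) became -0.04 with quantile normalization and -0.05 with 75th percentile scaling, and ranged from -0.14 to 0.22 as single arrays were left out. Itga1 1439713_at (0.00) became 0.01 with a floor of 64 and 0.14 with array weights, with a range of -0.14 to 0.12. The ranges were -0.24 to 0.02 for Itgb1 1426918_at, -0.29 to 0.15 for 1427771_x_at, -0.32 to 0.02 for 1452545_a_at, -0.08 to 0.44 for Itgav 1452784_at and -0.28 to 0.03 for 1421198_at. In the spleen comparison they were -0.25 to 0.13 for Itgal 1435560_at and -0.10 to 0.22 for Itgav 1421198_at, and in bone marrow against IL15tg spleen the latter ranged from -0.13 to 0.01 and was 0.00 with a floor of 64. Itga1, Itgax, Itgam and Itga4 1450155_at kept their direction and passed under all 17 alternatives in both comparisons with IL15tg spleen, at their brightest or named probe set.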
